A study of Mus musculus with 8 samples.

Results

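The genes described here are 37 genes of the extracellular matrix and of fibrosis, taken by name from a fixed list and measured among 55487 gene identifiers in mouse left ventricle. All 37 were found by symbol, and all 37 were among the 14695 genes that passed the filter on low counts and were tested. They comprise 13 collagen chains, 7 adhesive and matricellular glycoproteins, 4 small leucine-rich proteoglycans, 2 elastic fibre proteins, 3 lysyl oxidases, 5 proteases and protease inhibitors, and 3 TGF-beta ligands.

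The heart's collagen network is made largely by fibroblasts, which secrete procollagens that are trimmed, assembled into fibrils and crosslinked by lysyl oxidases. Basement membranes, sheets of type IV collagen and laminin, surround cardiomyocytes and capillaries and are made by these cells as well. In fibrosis TGF-beta, held latent in the matrix until released, raises collagen, fibronectin and periostin synthesis, while matrix metalloproteinases and their TIMP inhibitors set the rate of breakdown.

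RNA was sequenced from left ventricles of 8 C57BL/6 mice at 12 weeks of age. In all, 4 animals titled CM-ADGRF5-KO carry the genotype label GPR116-/- (myocyte-specific), and 4 animals titled NLC carry the label wild-type. The first are called KO and the second NLC below. Replicates 1 and 2 of each genotype were male and replicates 3 and 4 female, and a library is named by genotype and replicate, as in KO3. ADGRF5, also named GPR116, belongs to the adhesion class of G protein-coupled receptors, and the comparison asks whether its removal from cardiomyocytes changes ventricular transcripts. The driver of the deletion is not given in the sources used here, nor is it stated whether NLC animals carry a transgene or a floxed allele.

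Reads assigned to genes numbered 26.59 to 39.62 M per library in KO and 25.33 to 28.35 M in NLC. Levels are given in CPM, a gene's reads per unit of TMM-scaled library size, and 3 reads corresponded to 0.0793 to 0.122 CPM. Adgrf5 averaged 224 ± 15.7 CPM in KO and 233 ± 17.4 CPM in NLC (SD, n = 4 each), with a log2 fold change of -0.05 (SE 0.0754, edgeR adjusted p = 0.782). Capillary endothelium also expresses this gene, so a whole-ventricle level cannot check the labels. Cardiomyocyte markers marked the tissue as myocardium, Myh6 standing at 25420 to 34119 CPM in KO and 23250 to 30225 CPM in NLC. The fibroblast markers Pdgfra and Tcf21 were measured in every library, at 27.3 to 35.2 CPM and 6.88 to 10.9 CPM.

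No matrix gene differed between KO and NLC ventricles at an edgeR adjusted p under 0.05, with 0 of 37 higher and 0 of 37 lower. Over all genes tested, 15 of 14695 were called, or 0.102%. At an unadjusted p under 0.05, 0 matrix genes were higher and 2 were lower in KO, Col15a1 and Fn1, against a background of 11.9% of all genes in either direction and 6.18% lower. DESeq2 also called 0 of the 37, beside 150 of all genes. Their log2 fold changes ran from -0.64 for Fmod to 0.31 for Timp1, with a median of -0.04 beside -0.01 over all genes. Of the 37, 25 were negative and 12 positive, beside 51.0% negative over all genes. Leaving out 1 library turned the sign of 23 in at least 1 fit. For 29 genes the 95% interval of the log2 fold change lay within 0.5 of zero on either side, so larger changes than that fell outside their intervals. For the other 8 it passed 0.5 on at least 1 side, on the lower side alone in Postn, Lox and Cilp, on the upper side alone in Timp1, and on both sides in Thbs1, Thbs4, Comp and Fmod. In all 37 genes the KO and NLC ranges overlapped, while over all genes 6.25% did not overlap. In whole ventricle, fewer cells of a type and less RNA per cell cannot be told apart.

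**Figure D1:**
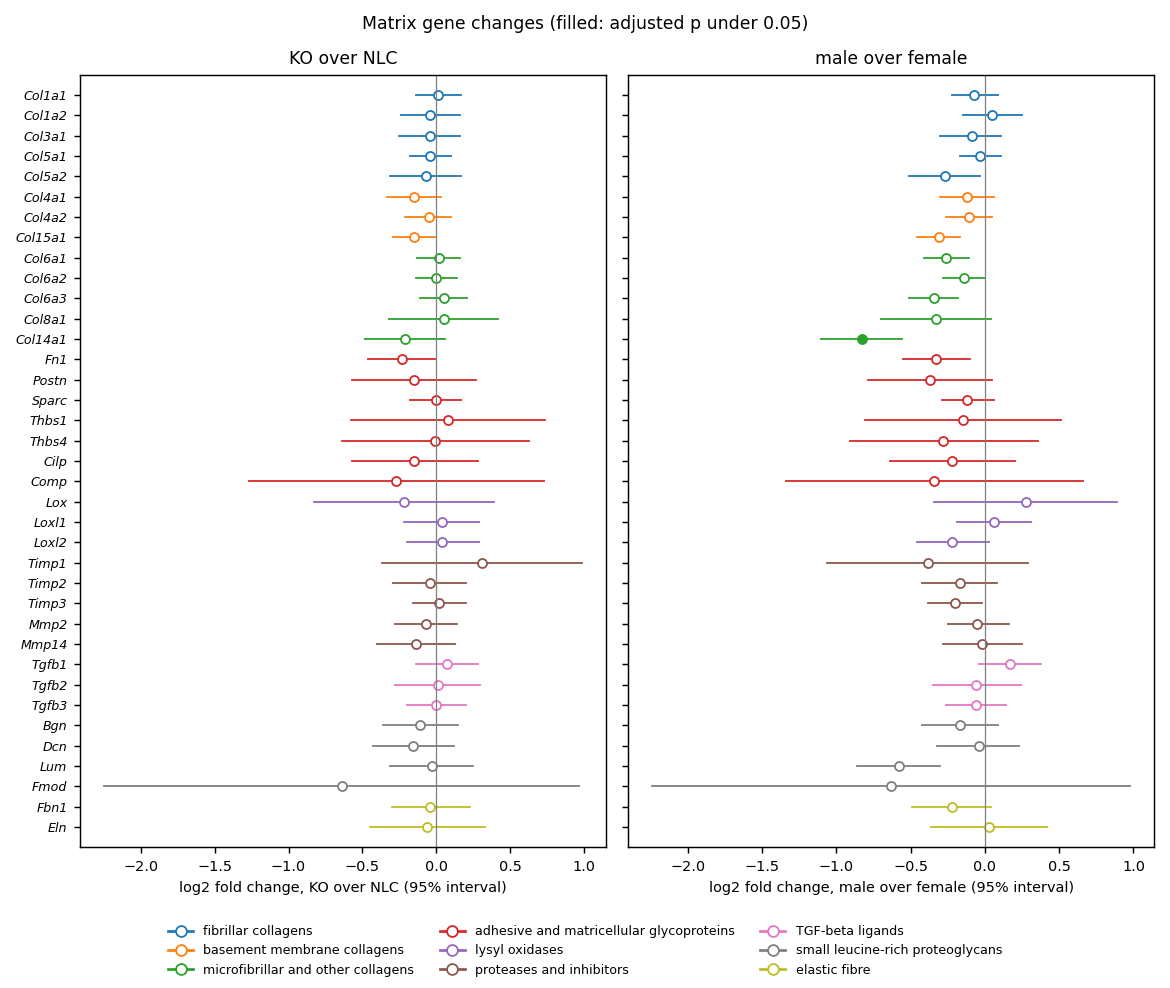
Log2 fold change (horizontal axis) of each of the 37 matrix genes (vertical axis, coloured by role), KO over NLC on the left and male over female on the right. Points are edgeR estimates, bars their 95% intervals, and a filled point marks an adjusted p under 0.05. No point is filled for KO over NLC and 1, Col14a1, is filled for male over female.

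Per kilobase of exon the most abundant messages were Sparc at 127 RPKM, Col4a1 at 71.6, Dcn at 69.0, Col4a2 at 61.4 and Bgn at 48.6 RPKM, each a mean over the 8 libraries. By the length of the principal transcript the order was Dcn at 229 RPKM, Sparc at 209, Bgn at 123, Col4a1 at 80.8 and Col4a2 at 63.0, so the order among these 5 depends on the length used. Lox was the lowest of the 37 by either length, at 0.699 and 0.705 RPKM. Type I and III collagen, the bulk of the interstitial scaffold, lay lower than type IV by either length. Col3a1 stood at 25.2 RPKM by all exons, Col1a1 at 19.5 and Col1a2 at 14.1.

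The fibrillar collagens form the tensile fibrils of the interstitium, type I giving stiffness, type III finer fibrils, and type V controlling fibril diameter. Col1a1, which encodes the alpha1 chain of type I, stood at 128, 125, 140 and 120 CPM in KO1 to KO4 and at 127, 119, 128 and 135 CPM in NLC1 to NLC4. The values of both genotypes covered the same span, with a log2 fold change of 0.01 (SE 0.0693, 95% interval -0.14 to 0.17, edgeR adjusted p = 0.943). Col3a1 stood at 222, 250, 268 and 232 CPM in KO and at 220, 264, 283 and 236 CPM in NLC, with a log2 fold change of -0.04 (95% interval -0.25 to 0.16). In both genotypes the lowest library was replicate 1. Col1a2 averaged 174 ± 20.6 CPM in KO and 178 ± 6.69 CPM in NLC, Col5a1 54.0 ± 2.71 and 55.4 ± 1.78 CPM, and Col5a2 43.2 ± 8.69 and 45.3 ± 4.63 CPM (SD, n = 4 each). Col5a1 was the steadiest of the 37 genes, its highest library being 1.11-fold above its lowest.

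The proportions of 5 pairs of chains were set against genotype, 4 of them pairs that assemble into one trimer and the fifth Col3a1 with Col1a1, whose trimers join in the same fibrils. The ratio of Col1a1 to Col1a2 CPM averaged 0.744 ± 0.0647 in KO and 0.715 ± 0.0477 in NLC, and that of Col3a1 to Col1a1 1.90 ± 0.108 in KO and 1.98 ± 0.278 in NLC (SD, n = 4 each). For Col6a1 to Col6a2 the ratio was 0.845 ± 0.0384 in KO and 0.835 ± 0.0563 in NLC, and for Col5a1 to Col5a2 1.28 ± 0.215 in KO and 1.23 ± 0.152 in NLC. Over the 5 pairs tested the smallest p was that of Col4a1 to Col4a2, at 1.27 ± 0.0265 in KO and 1.36 ± 0.0767 in NLC (exact two-sided permutation test, p = 0.0857, adjusted over the 5 pairs 0.428, smallest possible p 0.0286).

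Type IV collagen, the network-forming collagen of basement membranes, is encoded in part by Col4a1 and Col4a2, which lie head to head on chromosome 8 and are transcribed in opposite directions. In GENCODE M21 on GRCm38 Col4a1 spans chr8:11198423-11312826 on the minus strand and Col4a2 chr8:11312805-11449287 on the plus strand, so that the gene models overlap by 22 bases at their starts. Their promoter windows, 250 bases before to 50 after the start, are shown because one stretch of DNA carries both starts. Sequences are from RefSeq on GRCm38.p6, 5′ to 3′ on each gene's own strand, and capitals mark the 78 bases, chr8:11312777-11312854, that the windows share.
Col4a1, chr8:11312777-11313076, minus strand: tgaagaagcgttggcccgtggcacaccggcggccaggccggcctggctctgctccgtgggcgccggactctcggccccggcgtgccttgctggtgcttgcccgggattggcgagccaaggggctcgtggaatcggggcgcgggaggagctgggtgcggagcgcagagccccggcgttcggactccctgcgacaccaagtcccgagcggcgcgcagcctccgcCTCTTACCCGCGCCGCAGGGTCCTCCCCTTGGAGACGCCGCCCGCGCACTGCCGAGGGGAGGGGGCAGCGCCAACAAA
Col4a2, chr8:11312555-11312854, plus strand: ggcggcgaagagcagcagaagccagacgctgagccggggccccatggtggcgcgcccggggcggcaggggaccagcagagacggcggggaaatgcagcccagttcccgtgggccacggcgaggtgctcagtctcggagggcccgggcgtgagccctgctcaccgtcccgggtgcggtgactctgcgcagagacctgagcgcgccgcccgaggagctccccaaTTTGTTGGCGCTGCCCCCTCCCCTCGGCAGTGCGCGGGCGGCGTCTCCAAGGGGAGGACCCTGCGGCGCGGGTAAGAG
The capitals of one line are the reverse complement of those of the other. They hold the GC box letters GGGCGG, which read sense in Col4a2 and antisense in Col4a1.

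Col4a1 stood at 478, 484, 508 and 558 CPM in KO1 to KO4 and at 526, 563, 640 and 521 CPM in NLC1 to NLC4. Of the KO libraries 3 lay below every NLC library, while KO4 lay among them, with a log2 fold change of -0.15 (SE 0.0805, edgeR adjusted p = 0.463). Col4a2 stood at 380, 390, 395 and 430 CPM in KO and at 404, 391, 454 and 406 CPM in NLC, with a log2 fold change of -0.05 (SE 0.0682, edgeR adjusted p = 0.747). Both genes had their lowest value in KO1 and their highest in NLC3. The ratio of Col4a1 to Col4a2 CPM stayed between 1.24 and 1.44 in all 8 libraries. Because the strand setting of the counting is not given in the sources used here, reads of overlapping stretches may not be separated.

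Col15a1, on chr4:47208161-47313167, encodes a collagen found beside muscle and capillary basement membranes. It stood at 106, 119, 146 and 143 CPM in KO1 to KO4 and at 127, 129, 155 and 156 CPM in NLC1 to NLC4. Within each sex both KO libraries lay below both NLC libraries, although the genotypes overlapped across sexes. Its log2 fold change of -0.15 (SE 0.0634, 95% interval -0.29 to -0.01) had the smallest unadjusted p of the 37, 0.0415, with an edgeR adjusted p of 0.404. Endothelial markers, whose cells make basement membrane, were measured beside these genes. Of 9 markers 8 had a negative log2 fold change, with a median of -0.17, beside 51.0% negative and a median of -0.01 over all genes. At an unadjusted p under 0.05, 4 were lower, beside 6.18% of all genes, and 0 were lower after adjustment. Emcn averaged 39.2 ± 0.997 CPM in KO and 47.9 ± 4.36 CPM in NLC (SD, n = 4 each, edgeR adjusted p = 0.212). The summed CPM of the 9 endothelial markers ran from 1258 to 1448 in KO and from 1342 to 1647 in NLC, and their part in the basement membrane values was not tested.

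Of the microfibrillar and other collagens, type VI forms beaded filaments near cells, Col8a1 encodes a short-chain network collagen of vessels, and Col14a1 a fibril-associated collagen. Col6a1 averaged 112 ± 9.78 CPM in KO and 111 ± 15.2 CPM in NLC, Col6a2 132 ± 8.36 and 132 ± 10.1 CPM, and Col6a3 46.9 ± 7.10 and 45.2 ± 6.68 CPM (SD, n = 4 each). Col8a1 averaged 28.3 ± 8.95 CPM in KO and 27.1 ± 3.14 CPM in NLC. None of these 4 genotype differences exceeded the spread of its replicates. Col14a1 had the most negative log2 fold change of the group, -0.21 (SE 0.121, edgeR adjusted p = 0.485), and its libraries are given with the sexes.

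The adhesive and matricellular glycoproteins join cells to fibrils or tune their assembly. Fn1, on chr1:71585520-71653200, encodes fibronectin, an early scaffold of wound matrix. It stood at 44.1, 50.8, 58.0 and 49.4 CPM in KO1 to KO4 and at 53.6, 46.8, 63.2 and 76.5 CPM in NLC1 to NLC4. The 2 highest libraries were the NLC females, and the other NLC libraries lay within the KO range. Its log2 fold change came to -0.23 (SE 0.101, 95% interval -0.46 to -0.01, unadjusted p = 0.0442, edgeR adjusted p = 0.409).

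Postn, which encodes periostin, a marker of activated fibroblasts, stood at 36.3, 64.3, 77.2 and 44.3 CPM in KO1 to KO4 and at 52.6, 52.1, 74.0 and 69.7 CPM in NLC1 to NLC4. The KO values spread around the NLC values on both sides, with a log2 fold change of -0.15 (SE 0.189, edgeR adjusted p = 0.741). Cthrc1, another marker of activated fibroblasts, was under 1 CPM in every library, and the 6 tested markers of that state included 0 called genes. Sparc, a collagen chaperone of the matrix, averaged 481 ± 17.3 CPM in KO and 483 ± 52.6 CPM in NLC, and Cilp, a matrix protein of cardiac fibroblasts, 24.6 ± 7.53 and 27.3 ± 4.51 CPM (SD, n = 4 each). The thrombospondins Thbs1, an activator of latent TGF-beta, and Thbs4 averaged 10.6 ± 4.71 and 9.29 ± 2.83 CPM in KO and 9.92 ± 2.94 and 9.31 ± 3.95 CPM in NLC. Comp, a thrombospondin of tendon and cartilage also made in fibrotic tissue, stood at 4.07, 8.13, 16.4 and 5.90 CPM in KO1 to KO4 and at 14.8, 6.53, 4.72 and 13.9 CPM in NLC1 to NLC4. Its 3 highest libraries, KO3, NLC1 and NLC4, came from both genotypes and both sexes.

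The small leucine-rich proteoglycans bind collagen and regulate fibril growth. Dcn, which encodes decorin, averaged 381 ± 65.3 CPM in KO and 424 ± 41.5 CPM in NLC, with a log2 fold change of -0.16 (SE 0.122, edgeR adjusted p = 0.594). Bgn, for biglycan, averaged 285 ± 53.2 CPM in KO and 308 ± 25.8 CPM in NLC, and Lum, for lumican, 63.0 ± 19.9 and 64.0 ± 14.5 CPM (SD, n = 4 each).

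Fmod, which encodes fibromodulin, was the most variable of the 37 genes, its highest library being 21.2-fold above its lowest. The gene lies at chr1:134037254-134048277, and its promoter window is shown because of this spread. RefSeq gives the window on GRCm38.p6 as follows, with capitals marking CCAAT. It begins at base 35, with the start site counted as the first base.
Fmod, chr1:134037004-134037303, plus strand: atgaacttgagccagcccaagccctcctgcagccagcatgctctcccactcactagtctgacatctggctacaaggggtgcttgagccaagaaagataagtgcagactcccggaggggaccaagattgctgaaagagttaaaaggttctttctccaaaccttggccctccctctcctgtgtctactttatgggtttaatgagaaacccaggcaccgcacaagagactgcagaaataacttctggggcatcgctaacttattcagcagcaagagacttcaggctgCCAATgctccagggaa
Unlike the Col4a1 and Col4a2 windows, it holds no GGGCGG on either strand. Of the 37 genes, 23 had a window in the RefSeq table. CCAAT was found on either strand in 9 of the 23, or 39.1%, beside 37.9% of all 27025 windows. GGGCGG was in 14, or 60.9% beside 35.9% of all, TATAAA in 2, or 8.7% beside 14.2%, and the palindrome GTCTAGAC in 0, beside 0.2% of all. The 4 motifs were searched as written on both strands, and each was counted on its own.

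Fmod stood at 0.714, 4.25, 15.1 and 3.83 CPM in KO1 to KO4 and at 14.0, 5.18, 3.24 and 9.58 CPM in NLC1 to NLC4. The highest and the lowest library were both KO, and the log2 fold change of -0.64 had a 95% interval from -2.25 to 0.97 (SE 0.724, edgeR adjusted p = 0.715). KO3 and NLC1, its 2 highest libraries, were also the 2 highest for Comp. Among the markers of valve and tendon-like matrix, Chad and Prg4 also had their highest values in KO3, NLC4 and NLC1, while Scx did not. Chad stood at 0.106, 1.21, 4.70 and 1.13 CPM in KO1 to KO4 and at 1.42, 0.938, 0.0337 and 1.73 CPM in NLC1 to NLC4, highest in KO3, as was Prg4 at 23.9 CPM. Scx, the tendon transcription factor scleraxis, stood at 7.11, 6.71, 6.67 and 4.17 CPM in KO1 to KO4 and at 8.85, 4.16, 6.07 and 6.64 CPM in NLC1 to NLC4, highest in NLC1. The markers Tnmd and Chodl were under 1 CPM in every library, with their highest values in NLC1 and KO2. The summed CPM of that 5-gene list was 15.6, 19.7, 35.7 and 16.5 in KO1 to KO4 and 24.4, 15.4, 15.2 and 22.6 in NLC1 to NLC4. It was highest in KO3, NLC1 and NLC4, as were Fmod and Comp. The part of such tissue in the Fmod and Comp values was not tested.

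**Figure D2:**
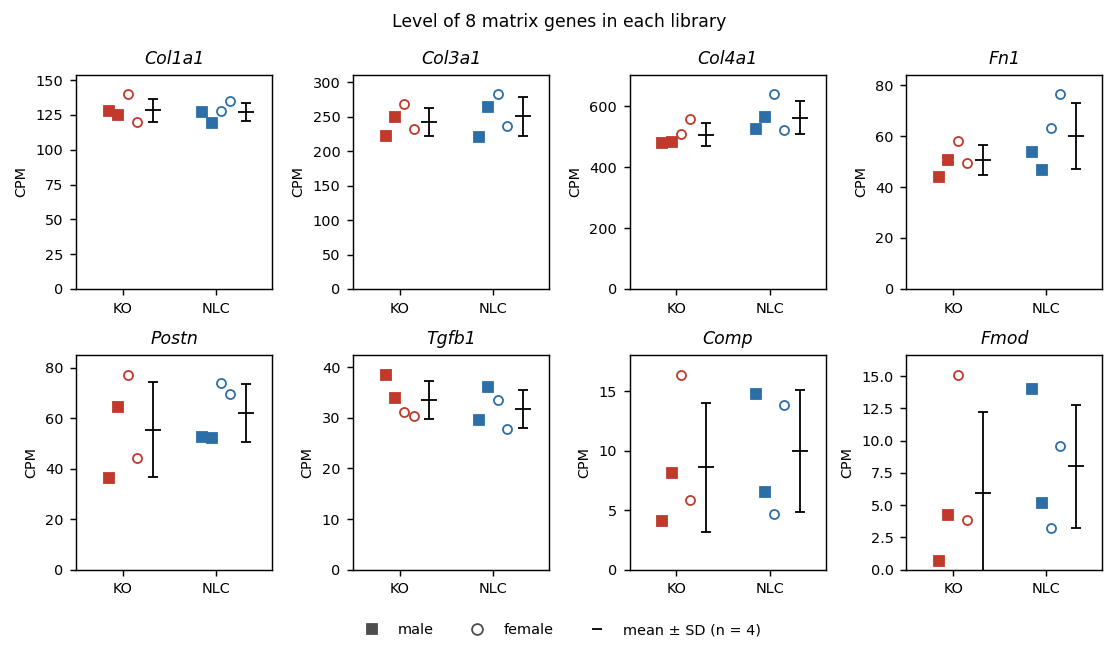
CPM (vertical axis, from 0) of 8 matrix genes in each KO and NLC library. Squares are males, open circles females, and the bar beside each group is its mean ± SD (n = 4), cut at 0 for Fmod in KO. The KO and NLC values overlap in every panel, and Comp and Fmod spread the most within each genotype.

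The elastic fibre genes encode the microfibril protein fibrillin-1 and elastin itself. Fbn1 averaged 65.1 ± 13.2 CPM in KO and 66.6 ± 7.01 CPM in NLC, and Eln 46.0 ± 8.94 and 47.9 ± 10.6 CPM (SD, n = 4 each). The lysyl oxidases oxidise lysines to crosslink collagen and elastin. Lox averaged 3.08 ± 0.872 CPM in KO and 3.61 ± 1.2 CPM in NLC, Loxl1, needed for elastic fibres, 60.8 ± 9.56 and 59.3 ± 4.8 CPM, and Loxl2, which acts on type IV collagen, 16.2 ± 2.90 and 15.6 ± 0.974 CPM. Each of these 5 differences was smaller than the SD within either genotype.

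Among genes of matrix turnover, Mmp2 encodes gelatinase A and Mmp14 its membrane-bound activator. Mmp2 averaged 68.4 ± 8.64 CPM in KO and 71.9 ± 4.29 CPM in NLC, and Mmp14 13.6 ± 2.05 and 15.0 ± 1.45 CPM (SD, n = 4 each). The inhibitor Timp1, often raised in fibrotic hearts, stood at 3.33, 4.63, 6.74 and 2.89 CPM in KO1 to KO4 and at 2.89, 3.06, 2.50 and 5.88 CPM in NLC1 to NLC4. In each genotype 1 female library was the highest, and the log2 fold change of 0.31 had a 95% interval from -0.37 to 0.99 (SE 0.305, edgeR adjusted p = 0.673). Timp1 lies within Syn1 on the opposite strand, and Timp3 within Syn3, so their counts carry the same strand limit. Timp2 averaged 127 ± 14.3 CPM in KO and 130 ± 22.5 CPM in NLC, and Timp3, a matrix-bound inhibitor, 240 ± 20.0 and 238 ± 30.8 CPM.

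The 3 TGF-beta ligands, the signals that drive matrix synthesis, had log2 fold changes between 0.002 and 0.07. Tgfb1 stood at 38.5, 34.0, 31.2 and 30.3 CPM in KO1 to KO4 and at 29.6, 36.0, 33.6 and 27.8 CPM in NLC1 to NLC4, with a log2 fold change of 0.07 (SE 0.0942, edgeR adjusted p = 0.752). Tgfb2 averaged 7.92 ± 0.983 CPM in KO and 7.87 ± 1.04 CPM in NLC, and Tgfb3 18.2 ± 1.96 and 18.1 ± 0.793 CPM (SD, n = 4 each).

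Genes of the same pathways outside the 37 were read from 7 further lists, and 0 of their tested genes were called between KO and NLC. Over all genes tested 51.0% of log2 fold changes were negative. At an unadjusted p under 0.05 stood 11.9% of all genes in either direction and 6.18% lower. In the list of collagen-modifying and processing enzymes 17 of 24 log2 fold changes were positive, with 3 higher and 1 lower at an unadjusted p under 0.05. Pcolce2 and Pcolce, enhancers of procollagen C-terminal cleavage, averaged 25.3 ± 2.72 and 81.2 ± 6.27 CPM in KO and 20.6 ± 1.21 and 69.0 ± 3.19 CPM in NLC (edgeR adjusted p = 0.226 and 0.306). P4hb, a subunit of prolyl 4-hydroxylase, averaged 265 ± 27.0 CPM in KO and 217 ± 12.1 CPM in NLC (edgeR adjusted p = 0.290).

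Among 24 matrix receptors 17 log2 fold changes were negative, beside 51.0% over all genes. At an unadjusted p under 0.05, 2 were higher and 3 lower, beside 6.18% of all genes lower. Itga6, a laminin receptor chain, had the smallest unadjusted p of any gene in these lists. It stood at 47.6, 49.8, 46.3 and 52.2 CPM in KO1 to KO4 and at 57.0, 74.2, 70.6 and 59.7 CPM in NLC1 to NLC4. Every KO library lay below every NLC library, as in 3.03% of all genes tested, though choice by smallest p favours such genes. Adam10, Lama2 and Tgfbr2, also named for a small p, were likewise wholly lower in KO, and Pcolce and Pcolce2 wholly higher. The log2 fold change of Itga6 was -0.42 (SE 0.0939, edgeR adjusted p = 0.185). Itga1, a collagen receptor chain, averaged 44.2 ± 3.15 CPM in KO and 56.9 ± 8.92 CPM in NLC, and Sdc1, for syndecan-1, 7.30 ± 0.926 and 5.70 ± 0.710 CPM (SD, n = 4 each, edgeR adjusted p = 0.306 and 0.364).

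Of 20 TGF-beta receptors, carriers, Smads and targets 15 had a negative log2 fold change, beside 51.0% of all genes. At an unadjusted p under 0.05, 4 were lower, beside 6.18% of all genes. Smurf2, a ubiquitin ligase of the pathway, averaged 30.3 ± 5.0 CPM in KO and 37.8 ± 3.01 CPM in NLC, Tgfbr2, the type II receptor, 50.1 ± 1.59 and 59.2 ± 5.57 CPM, and Bambi, a pseudoreceptor, 12.0 ± 1.82 and 14.5 ± 1.94 CPM (SD, n = 4 each, edgeR adjusted p = 0.266, 0.326 and 0.350). Among 14 tested laminins, nidogens and related genes 7 were positive and 7 negative, with 3 lower at an unadjusted p under 0.05. Lama2, for the laminin alpha2 chain of muscle, averaged 84.8 ± 5.98 CPM in KO and 98.5 ± 4.90 CPM in NLC, Lama4, of vessels, 88.1 ± 12.6 and 99.4 ± 10.5 CPM, and Lamc3 0.763 ± 0.317 and 1.18 ± 0.421 CPM (edgeR adjusted p = 0.335, 0.375 and 0.410).

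The 22 other collagens tested gave 7 positive and 15 negative values, with Col27a1 at 11.0 ± 0.771 CPM in KO and 8.89 ± 1.63 CPM in NLC (SD, n = 4 each, edgeR adjusted p = 0.381), Col11a2 at 6.11 ± 0.468 and 4.73 ± 1.45 CPM, and Col22a1 at 1.17 ± 0.372 and 1.52 ± 0.203 CPM. Of 21 other matrix proteases and inhibitors 16 were negative, beside 51.0% of all genes. At an unadjusted p under 0.05, 1 was higher and 4 lower, beside 6.18% of all genes lower. Adam10, a sheddase, averaged 30.8 ± 2.83 CPM in KO and 39.7 ± 3.97 CPM in NLC, Plat, for tissue plasminogen activator, 20.1 ± 2.63 and 24.2 ± 2.92 CPM, and Mmp13 0.530 ± 0.249 and 1.09 ± 0.495 CPM (edgeR adjusted p = 0.212, 0.364 and 0.358). The 28 other elastic fibre, proteoglycan and matricellular genes gave 12 positive and 16 negative values, led by Fbn2 at 2.79 ± 0.577 CPM in KO and 1.94 ± 0.674 CPM in NLC (edgeR adjusted p = 0.409), Mfap4 at 22.3 ± 6.99 and 29.4 ± 10.1 CPM, and Sparcl1 at 373 ± 14.7 and 420 ± 53.8 CPM.

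Within males 0 of the 37 matrix genes were called between KO and NLC, beside 0.0408% of all genes, and 1 was lower at an unadjusted p under 0.05, beside 17.5% of all genes in either direction and 8.45% lower. That gene was Fmod, at 0.714 and 4.25 CPM in KO males and 14.0 and 5.18 CPM in NLC males (log2 fold change -2.0, SE 0.884, edgeR adjusted p = 0.284). Col15a1 and Mmp14 came next, with log2 fold changes of -0.19 and -0.29 (edgeR adjusted p = 0.304 and 0.372). Within females 0 of 37 were called, as were 0 of all 14695 genes, of which 753 had an unadjusted p under 0.05 and 17 were called by DESeq2. Fn1 was the 1 matrix gene under 0.05 unadjusted, beside 5.12% of all genes in either direction and 2.99% lower, at 58.0 and 49.4 CPM in KO females and 63.2 and 76.5 CPM in NLC females (log2 fold change -0.38, SE 0.131, edgeR adjusted p = 0.969). Col14a1 and Mmp2 followed at -0.33 and -0.16 (edgeR adjusted p = 0.970 and 0.978).

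The genotype difference itself was set against sex by an interaction term, male minus female, and 0 matrix genes were called or reached an unadjusted p under 0.05. Over all genes edgeR called 0 as well, with 1096, or 7.46%, at an unadjusted p under 0.05 and 3.16% negative there, and DESeq2 called 15. Fmod had the smallest p of the 37, with log2 fold changes of -2.0 in males and 0.57 in females and a difference of -2.57 (SE 1.2, unadjusted p = 0.0605, edgeR adjusted p = 0.648). Fn1 and Col5a1 followed, with differences of 0.30 and -0.17 (edgeR adjusted p = 0.690 and 0.708).

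Male ventricles had less Col14a1 mRNA than female ventricles, the 1 called difference among the 37 genes, beside 0.299% of all genes in either direction and 0.0817% lower in males. Col14a1, on chr15:55307750-55520803, encodes collagen XIV, which coats collagen fibrils. It stood at 14.4 and 19.1 CPM in KO males and 17.8 and 17.5 CPM in NLC males, and at 27.2 and 27.1 CPM in KO females and 28.9 and 39.4 CPM in NLC females. Every male library lay below every female library, and the levels averaged 17.2 ± 2.00 CPM in males and 30.7 ± 5.90 CPM in females (SD, n = 4 each). The log2 difference was -0.83 (SE 0.122, 95% interval -1.10 to -0.56, edgeR adjusted p = 0.0237). Leaving out KO1, KO3, KO4, NLC1 or NLC2 ended the call, with adjusted p-values of 0.0872, 0.0946, 0.0566, 0.128 and 0.103, while leaving out KO2, NLC3 or NLC4 did not.

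The male values were lower in most of the list, with 32 of 37 log2 fold changes negative and a median of -0.17, beside 51.7% negative and a median of -0.01 over all genes. At an unadjusted p under 0.05, 0 were higher and 8 lower in males, beside 12.8% of all genes in either direction and 6.04% lower. In 6 genes, Col6a1, Col6a2, Col6a3, Col14a1, Col15a1 and Lum, every male library lay below every female library, as in 3.03% of all genes, and in 0 the reverse held, while 6.87% of all genes did not overlap in either direction. DESeq2 called 5 of these, Col14a1, Col15a1, Col6a1, Col6a3 and Lum, all lower in males. Over all genes it called 216 between the sexes, against 44 by edgeR. Lum averaged 50.8 ± 6.93 CPM in males and 76.1 ± 11.5 CPM in females, a log2 fold change of -0.58 (SE 0.126, edgeR adjusted p = 0.115). Col6a3 averaged 40.6 ± 2.08 CPM in males and 51.5 ± 3.80 CPM in females, and Col15a1 120 ± 10.6 and 150 ± 6.42 CPM (edgeR adjusted p = 0.115 and 0.0966). Col1a1 and Col1a2 differed less, at 125 ± 4.18 and 179 ± 7.82 CPM in males and 131 ± 8.70 and 173 ± 20.0 CPM in females.

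**Figure D3:**
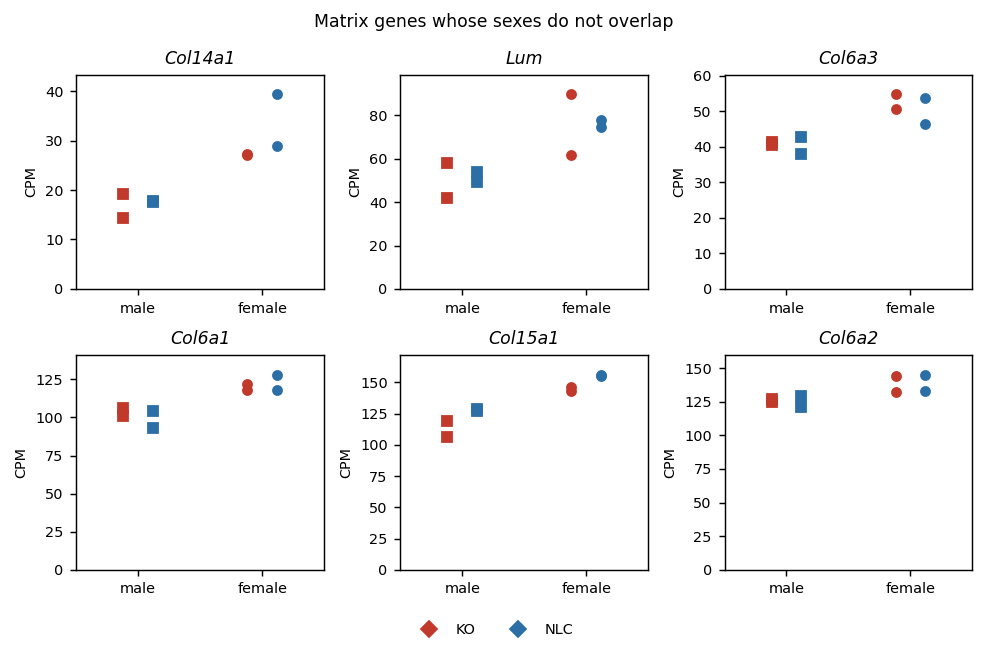
CPM (vertical axis, from 0) of the 6 matrix genes whose male and female values do not overlap, with KO libraries in red and NLC libraries in blue. All 4 male libraries lie below all 4 female libraries in each panel.

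Within KO animals both females lay above both males in 10 of the 37 genes, a share near the 24.3% of all genes that did so, and below in 1, Tgfb1. Within NLC animals they lay above in 18 of the 37, beside 19.2% of all genes, and below in 0. Fibroblast markers were also lower in males in 9 of 11 log2 fold changes, with a median of -0.23 and 0 called, although their summed CPM ran from 1698 to 2048 in males and from 1693 to 2451 in females. Of the macrophage markers Csf1r was higher in males, at 61.8 ± 2.71 CPM in males and 45.9 ± 3.09 CPM in females (SD, n = 4 each, edgeR adjusted p = 0.0325). The part of either cell type in the matrix values was not tested. By the running numbers of the library names all 4 male libraries precede all 4 female libraries, so sex and that order cannot be told apart.

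Libraries of the same genotype differed from each other more than the genotype means did. KO3 held the highest value of 17 genes, NLC4 of 10 and NLC3 of 6, while KO1 held the lowest of 16 and KO4 of 7. Averaged over the 37 genes, with each gene's log2 CPM centred on its mean, the libraries stood at -0.30, 0.004, 0.30 and -0.16 in KO1 to KO4 and at 0.03, -0.08, -0.03 and 0.23 in NLC1 to NLC4. The KO and NLC means of this score were -0.04 and 0.04, closer together than the KO libraries among themselves. The male and female means were -0.09 and 0.09, and the sexes overlapped, at -0.30 to 0.03 in males and -0.16 to 0.30 in females. KO3 and NLC4, the highest libraries, are both female, and KO1, the lowest, is male. Without KO3 the median log2 fold change of the 37 genes was -0.13, and without KO4 it was 0.02, so that its direction rested on KO4. The highest library was under 1.5-fold above the lowest in 21 genes and under 3-fold in 35, the exceptions being Comp at 4.02-fold and Fmod at 21.2-fold.

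**Figure D4:**
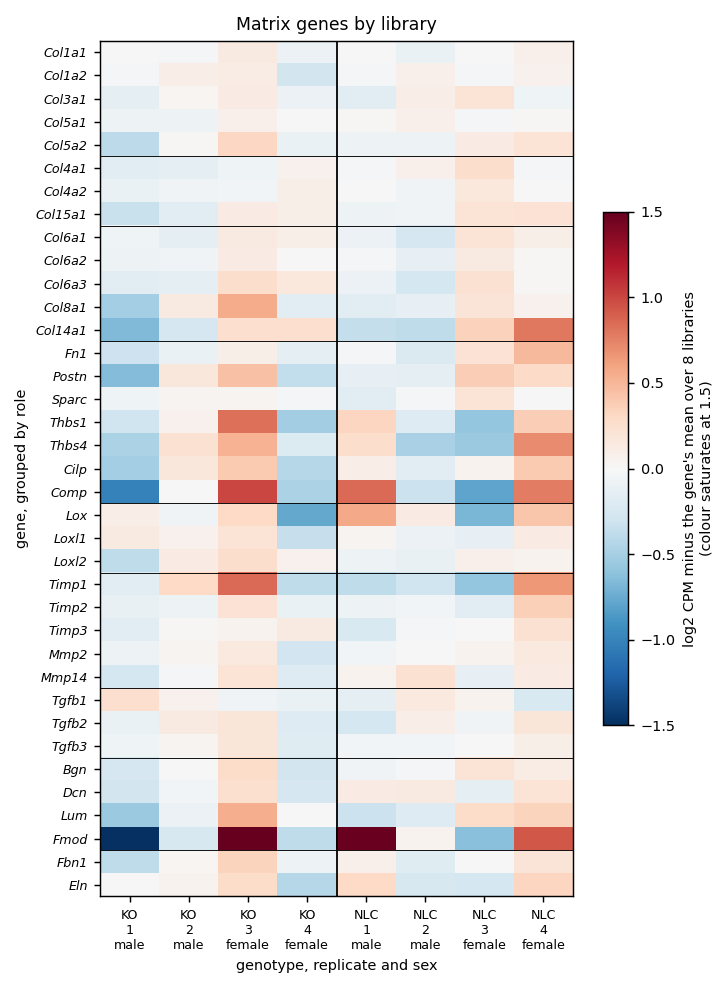
Log2 CPM minus the gene's mean over the 8 libraries, as colour that saturates at 1.5, for the 37 matrix genes (rows, grouped by role) in each library (columns, KO left of NLC). Red columns for KO3 and NLC4 and a blue column for KO1 cross most role groups, and Fmod and Comp have the strongest colours.

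The scores of the proteoglycans and of the adhesive glycoproteins had the widest ranges over the libraries. That of the 4 proteoglycans was -0.95, -0.09, 0.66 and -0.23 in KO1 to KO4 and 0.30, -0.01, -0.07 and 0.39 in NLC1 to NLC4, while that of the TGF-beta ligands stayed between -0.16 and 0.10. Within the proteoglycans Fmod varied the most, with an SD of log2 CPM over the 8 libraries of 1.38, beside 0.367 for Lum, 0.203 for Dcn and 0.199 for Bgn, so the group's score leans on this 1 gene. The score of the 11 fibroblast markers was -0.02, -0.06, 0.18 and -0.17 in KO1 to KO4 and -0.01, -0.04, -0.15 and 0.27 in NLC1 to NLC4, highest in NLC4 and KO3 like the matrix genes but not low in KO1. Its part in the matrix values was not tested. Scores of marker lists cover their tested genes, 5 of 6 for atrium, 3 of 7 for mesothelium and 4 of 6 for fat. Markers of atrium, mesothelium and fat had their highest KO score in KO3 and their highest NLC score in NLC4. So did markers of endocardium, of activated fibroblasts, of pericytes and smooth muscle, and of glia. The atrial score was -2.87, -0.86, 1.94 and -0.97 in KO1 to KO4 and 0.23, 1.63, -3.15 and 4.04 in NLC1 to NLC4. Sln, an atrial regulator of the calcium pump, stood at 0.0264, 1.31, 32.8 and 1.35 CPM in KO1 to KO4 and at 6.60, 32, 0.0337 and 222 CPM in NLC1 to NLC4, and the atrial marker Bmp10 was under 1 CPM in every library. The summed CPM of 7 mesothelial markers was 3.64 to 9.16 in KO and 5.73 to 35.1 in NLC, and that of 6 adipocyte markers 1.62 to 12.9 in KO and 1.38 to 35.2 in NLC, the highest library being NLC4 for both. Leaving out both NLC females, chosen after these values were seen, left 0 of the 37 genes called. The part of atrial, epicardial or fat tissue, or of the other cell types of these lists, in the matrix values was not tested.

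**Figure D5:**
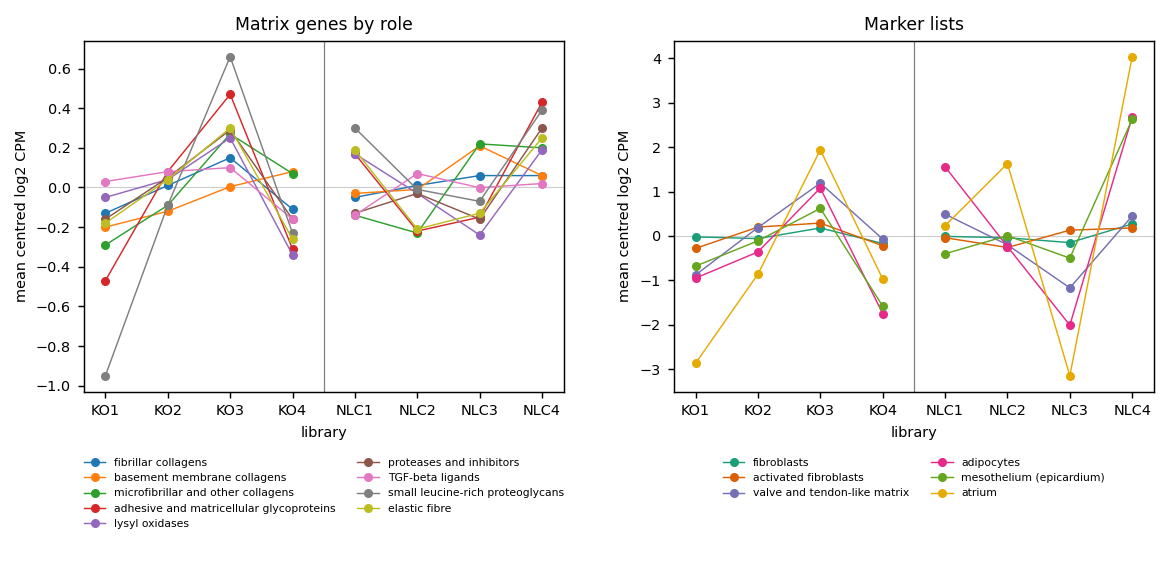
Mean centred log2 CPM (vertical axes, on different scales) of the 9 role groups of matrix genes (left) and of 6 lists of cell type markers (right) in each library, KO left of NLC. On the left KO3 and NLC4 stand highest for most groups. On the right the atrial, adipocyte and mesothelial lists reach their highest value in NLC4, and the fibroblast list, between -0.17 and 0.27, is highest in NLC4 and KO3.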

How the data were processed

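Ventricular RNA was converted to strand-specific TruSeq mRNA libraries, per the labels' protocols. Each library has 1 deposited file of unnormalised counts, the reads assigned to each gene. The submitters' processing notes name STAR, HTSeq, DESeq2 and GRCm38, and their versions, the annotation and the strand setting were not given. Of all tallied reads the 5 summary entries, kept out of library sizes and tests, held 16.844% to 20.302% as not unique, 3.065% to 4.084% outside genes and 1.264% to 1.381% as ambiguous, so reads shared between near-identical copies are mostly uncounted.

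Symbols and coordinates came from GENCODE M21, which named 55227 of 55487 identifiers. Counts were tested in R 4.3.3 with edgeR 4.0.16 by quasi-likelihood (filterByExpr by genotype, TMM, sex as an additive term, 14695 genes). Benjamini-Hochberg adjustment covered all 14695 genes, and the threshold was 0.05. Contrasts within a sex and their difference came from 1 mean per sex and genotype. CPM, RPKM and fold changes were computed here from the counts. SE was the log2 fold change divided by the square root of F. Scores use log2 CPM with a prior count of 2.

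All 37 genes are named. From each of the 7 further lists the 3 genes with the smallest p were named, with every called gene, and in the contrasts by sex every called matrix gene or the 3 with the smallest p. Other marker genes were named after their values were seen. The members and lists were chosen with earlier results of these data known. On simulated counts, with 200 genes changed in each of 5 simulations on 14560 genes, KO against NLC recovered 67.2% of 1.5-fold, 92.5% of 2-fold and 98.5% of 3-fold changes, and 6.22% of the calls were false. In separate simulations with the change in KO males only, the contrast in males recovered 25.1%, 77.3% and 91.8%, by the same fold changes. On those counts the sex difference recovered 3.28%, 34.6% and 75.2%. The false share of the calls was 7.32% in males and 9.42% for the sex difference. The changed genes were drawn only from those above a minimum mean CPM. The real comparison of KO and NLC called 15 of 14695 genes, fewer than were changed here, so these shares need not hold for it. Alternatives were DESeq2 1.42.0, RLE scaling, no filter, no sex or genotype term, a replicate block and each library left out. Counting error alone is covered by the limit of 3 reads.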

Additional observations from a re-analysis of the deposited data

Results flagged for a closer look

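In 94 groups of 4 libraries, KO and NLC for each of the 37 genes and for the scores of their role groups and of the whole list, the highest or lowest library was checked for a gap to its neighbour that exceeds Dixon's 95% critical value for 4 samples, as a share of the group's range. Chance alone marks about 1 in 20 groups, and 2 were marked. Timp2 in KO stood at 148 CPM in KO3 and at 118 to 121 CPM in the other 3 libraries, a gap of 0.885 of the range. Timp1 in NLC stood at 5.88 CPM in NLC4 and at 2.50 to 3.06 CPM in the other 3, a gap of 0.834 of the range. KO3 and NLC4 are also the libraries with the highest scores over all 37 genes and with the highest atrial marker scores in their genotypes, and the part of either in these values was not tested.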

How the results depend on the processing

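Between KO and NLC 0 of 37 matrix genes were called under DESeq2, RLE scaling, no sex term, the replicate block and each left-out library. Without the filter 1 was called, Fmod (adjusted p = 0.00221), and within males and in the sex difference 2 each, Comp and Fmod. Without the filter the prior degrees of freedom were infinite, against 5.22 with it, so each gene took its dispersion from the trend, and the quasi-dispersion of Fmod was 0.681, against 15.4 with the filter. Between males and females DESeq2 called 5 matrix genes, the fit without the filter 8 (Col14a1, Col15a1, Col6a3, Col8a1, Fmod, Fn1, Lum and Postn) and the fits without 1 library 0 to 1.

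Counts over all genes moved more. KO against NLC gave 15, and 150 by DESeq2, 621 without the filter, 6 without sex, 0 with the replicate block, 44 without both NLC females (chosen after seeing the data) and 0 to 50 without 1 library. In males 6 became 314 by DESeq2, 1007 without the filter, 0 with the replicate block and 0 to 59 without 1 library. In females 0 became 17, 277 and 0 to 81, and for the sex difference 0 became 15, 243 and 0 to 8, each by DESeq2, without the filter and without 1 library in turn. Male against female gave 44, and 216 by DESeq2, 742 without the filter and 16 to 176 without 1 library. Beyond the filter, the cause was not tested.

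The deviations of same-numbered KO and NLC libraries from their genotype means correlated at 0.246, 0.0937, -0.208 and 0.0873. Those of differently numbered libraries ran from -0.375 for KO1 with NLC4 to 0.497 for KO3 with NLC4. Sex was not removed from these deviations, so they cannot show whether the animals were paired. Signs turned for Col6a2 at 0.002 and Sparc at 0.001 without the filter and for Tgfb3 at -0.003 and Thbs4 at 0.03 with the replicate block. Leaving out 1 library turned the sign of 23 uncalled genes between KO and NLC. Their log2 fold changes then ranged from -0.03 to 0.06 for Col1a1, -0.11 to 0.05 for Col1a2, -0.10 to 0.01 for Col3a1, -0.16 to 0.01 for Col5a2, -0.03 to 0.05 for Col6a1, -0.02 to 0.03 for Col6a2, -0.12 to 0.18 for Col8a1, -0.36 to 0.01 for Postn, -0.06 to 0.15 for Loxl1, -0.05 to 0.15 for Loxl2, -0.14 to 0.07 for Timp2 and -0.03 to 0.07 for Timp3. They ranged from -0.07 to 0.10 for Tgfb2, -0.07 to 0.08 for Tgfb3, -0.05 to 0.06 for Sparc, -0.31 to 0.25 for Thbs1, -0.22 to 0.28 for Thbs4, -0.15 to 0.07 for Lum, -0.14 to 0.05 for Fbn1, -0.21 to 0.07 for Eln, -0.15 to 0.03 for Mmp2, -0.32 to 0.005 for Cilp and -0.76 to 0.12 for Comp. In females Mmp2 ranged from -0.39 to 0.05. The other 14 genes kept their sign in these fits, though not their size, since Fmod ranged from -1.48 without KO3 to -0.06 without NLC1, Lox from -0.48 to -0.01 and Timp1 from 0.05 to 0.62. In males Fmod ranged from -3.75 to -1.10.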
